A study of Mus musculus with 28 samples.

Results

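The genes described here are 10 members of the circadian clock of the liver: Arntl, Npas2, Per1, Per2, Per3, Nr1d1, Nr1d2, Dbp, Ciart and Bhlhe40. They were found by gene name among the probes of the array, with the older names Gm129 accepted for Ciart and Bhlhb2 for Bhlhe40. The array held 13 probes for these 10 genes, of 41174 probes in all. Of the members, 12 probes for 9 genes were bright enough to be tested, of 32078 probes for 21851 genes. Per3 was not tested. The set was proposed with results of these arrays in view, so the levels across the diets are given as a description.

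Liver RNA of 28 male C57/6J mice was hybridised singly to Agilent arrays in 1 colour. The mice started their diets at 7 weeks of age, ate them for 26 weeks and were 33 weeks old at the end. HQ mice (5 livers) ate a high-fat diet with 0.4% quercetin, HR mice (6 livers) a high-fat diet with 0.4% resveratrol, and HQR mice (6 livers) a high-fat diet with 0.2% of each compound. Quercetin and resveratrol are plant polyphenols. HFD mice (6 livers) ate the high-fat diet alone and SD mice (5 livers) ate standard food. Every group but SD therefore shared the high-fat diet, and no group received a compound on standard food. The labels give neither the hour at which the livers were taken nor the feeding state of the mice.

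The clock of liver cells is a feedback loop of transcription. ARNTL (also called BMAL1) pairs with CLOCK or its relative NPAS2 and switches on genes that carry E-boxes, among them the Per genes, Nr1d1, Nr1d2, Dbp, Ciart and Bhlhe40. The PER proteins and their CRY partners then hold that pair back, and the nuclear receptors NR1D1 and NR1D2 (REV-ERB alpha and beta) repress Arntl and Npas2. In mouse liver this gives Arntl and Npas2 a peak at a time of day when Dbp and Nr1d1 are low, and the amplitude of Dbp is among the largest of the known clock genes. A liver that is sampled once shows one phase of this cycle.

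The promoters are shown because E-boxes, D-boxes and ROR elements are the sites through which the loop is known to act on its own genes. RefSeq windows of 250 bases before to 50 bases after the start site (GRCm38.p6) were at hand for 8 of the 10 members, in 10 windows. Capitals mark each motif found, on either strand.
Ciart promoter, chr3:95882179-95882478 (- strand): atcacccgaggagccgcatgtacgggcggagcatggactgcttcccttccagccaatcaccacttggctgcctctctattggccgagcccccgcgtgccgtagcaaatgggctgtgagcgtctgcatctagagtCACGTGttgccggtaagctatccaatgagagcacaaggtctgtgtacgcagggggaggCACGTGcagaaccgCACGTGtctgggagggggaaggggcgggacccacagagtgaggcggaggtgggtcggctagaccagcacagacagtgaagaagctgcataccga
Per1 promoter, chr11:69098699-69098998 (+ strand): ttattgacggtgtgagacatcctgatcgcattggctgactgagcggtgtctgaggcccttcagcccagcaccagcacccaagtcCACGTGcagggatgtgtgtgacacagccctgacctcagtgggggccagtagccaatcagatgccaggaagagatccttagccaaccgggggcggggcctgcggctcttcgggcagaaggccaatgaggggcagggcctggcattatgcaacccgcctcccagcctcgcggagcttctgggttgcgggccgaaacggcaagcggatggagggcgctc
Nr1d1 promoter, chr11:98775328-98775627 (- strand): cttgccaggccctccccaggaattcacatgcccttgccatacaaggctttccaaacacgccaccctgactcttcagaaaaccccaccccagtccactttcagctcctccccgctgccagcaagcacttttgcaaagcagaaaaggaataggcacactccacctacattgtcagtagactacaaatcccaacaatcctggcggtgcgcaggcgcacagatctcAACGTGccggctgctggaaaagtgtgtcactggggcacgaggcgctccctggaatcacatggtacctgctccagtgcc
Per3 promoter, chr4:151044616-151044915 (- strand): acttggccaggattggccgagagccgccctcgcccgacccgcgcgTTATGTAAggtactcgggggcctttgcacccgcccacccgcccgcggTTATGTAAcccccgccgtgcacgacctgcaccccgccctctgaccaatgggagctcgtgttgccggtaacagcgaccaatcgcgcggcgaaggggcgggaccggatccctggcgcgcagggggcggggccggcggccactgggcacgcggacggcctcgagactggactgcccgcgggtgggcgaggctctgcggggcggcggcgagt
Arntl promoter, chr7:113207261-113207560 (+ strand): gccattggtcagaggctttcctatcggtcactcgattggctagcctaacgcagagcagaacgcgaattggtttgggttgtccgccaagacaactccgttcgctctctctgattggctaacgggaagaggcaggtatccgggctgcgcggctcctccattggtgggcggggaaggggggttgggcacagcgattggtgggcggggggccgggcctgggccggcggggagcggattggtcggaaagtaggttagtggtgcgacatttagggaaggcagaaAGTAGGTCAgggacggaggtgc

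The Ciart window held 3 copies of the E-box CACGTG, starting at -116, -58 and -44 from the start site. The Per1 window held 1 E-box at -166. The same letters were found in 7.15% of all 32851 RefSeq windows of this length. Nr1d1 carried the related E'-box CACGTT, read here as AACGTG from the other strand, at -28, against 4.68% of all windows. Per3 had 2 copies of the D-box TTATGTAA, at -205 and -158, where TTATGTAA or TTACGTAA stood in 1.06% of all windows. D-boxes are the sites bound by DBP and its relatives TEF and HLF. Arntl carried the ROR element ANTAGGTCA or ANTGGGTCA once, at 28 bases after the start site, against 1.45% of all windows. The cAMP response element TGACGTCA, which 1.79% of all windows held, was in none of the 10. None of the 5 motifs was found in the windows of Npas2, Nr1d2 and Dbp, or in the other windows of Arntl and Per1. A match describes the letters of these windows only.

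The probes of Arntl and Nr1d1 are shown because these genes stand on opposite sides of the loop, and the dimmer Per2 probe is shown because it did not follow the brighter one. Coordinates are those of the array files (mm9). No mm9 gene annotation was used here, so exons and UTRs are not assigned. The Nr1d1 probe spans 503 bases of the genome with its 60 bases, which means that its letters come from separate stretches of the gene.
Arntl probe, chr7:120456978-120457037 (+ strand): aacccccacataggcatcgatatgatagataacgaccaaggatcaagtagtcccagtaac
Nr1d1 brightest probe, chr11:98630526-98631028 (- strand): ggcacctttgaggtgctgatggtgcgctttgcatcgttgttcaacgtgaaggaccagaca
Per2 dimmer probe, chr1:93336538-93336597 (- strand): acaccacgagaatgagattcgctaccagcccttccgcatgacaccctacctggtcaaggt

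The arrays were not equally bright. Between 59.3% and 82.1% of probes stood well above background on an array, and no spot was saturated. The 28 arrays lay on 9 slides. Slide 8, with HFD replicate 5, HR replicate 6 and HQR replicate 4, stood apart, with at least 79.3% of probes above background against at most 74.3% on the other slides. Of the members, 7 genes had a probe above background on all 28 arrays. Npas2 was above background on 27 arrays, Ciart on 24 and Per3 on 3. The 6 hepatocyte markers were above background on all 28 arrays, as fits the labelled tissue, while the adipocyte list had no gene above background on all of them.

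Dbp encodes a PAR bZIP transcription factor that acts through D-boxes on liver enzymes. It was the member that differed most between livers. Levels are log2 values with the 75th percentile of the array set to 0, so that 1 unit is a doubling. In HQ livers 1 to 5, Dbp had levels of 0.88, 5.45, 6.39, 2.74 and 2.12. In HR livers the lowest level was 0.33, the median 2.62 and the highest 5.04. In HQR livers the lowest was 1.43, the median 3.12 and the highest 6.22. The groups that received a compound thus each held livers with much and with little Dbp RNA. In HFD livers the lowest level was 3.02, the median 4.53 and the highest 5.17. In SD livers 1 to 5, Dbp had levels of 4.05, 1.92, 0.40, 3.06 and 4.05. Of the 6 HFD livers, 5 stood at 4.48 or above and replicate 5 at 3.02, and each of the other 4 groups held at least 1 liver below that lowest HFD value. The SD of the HFD group was 0.76 (n = 6), against 2.32 in HQ (n = 5), 1.63 in HR (n = 6), 1.79 in HQR (n = 6) and 1.56 in SD (n = 5). This difference in spread was not tested.

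**Figure D1:**
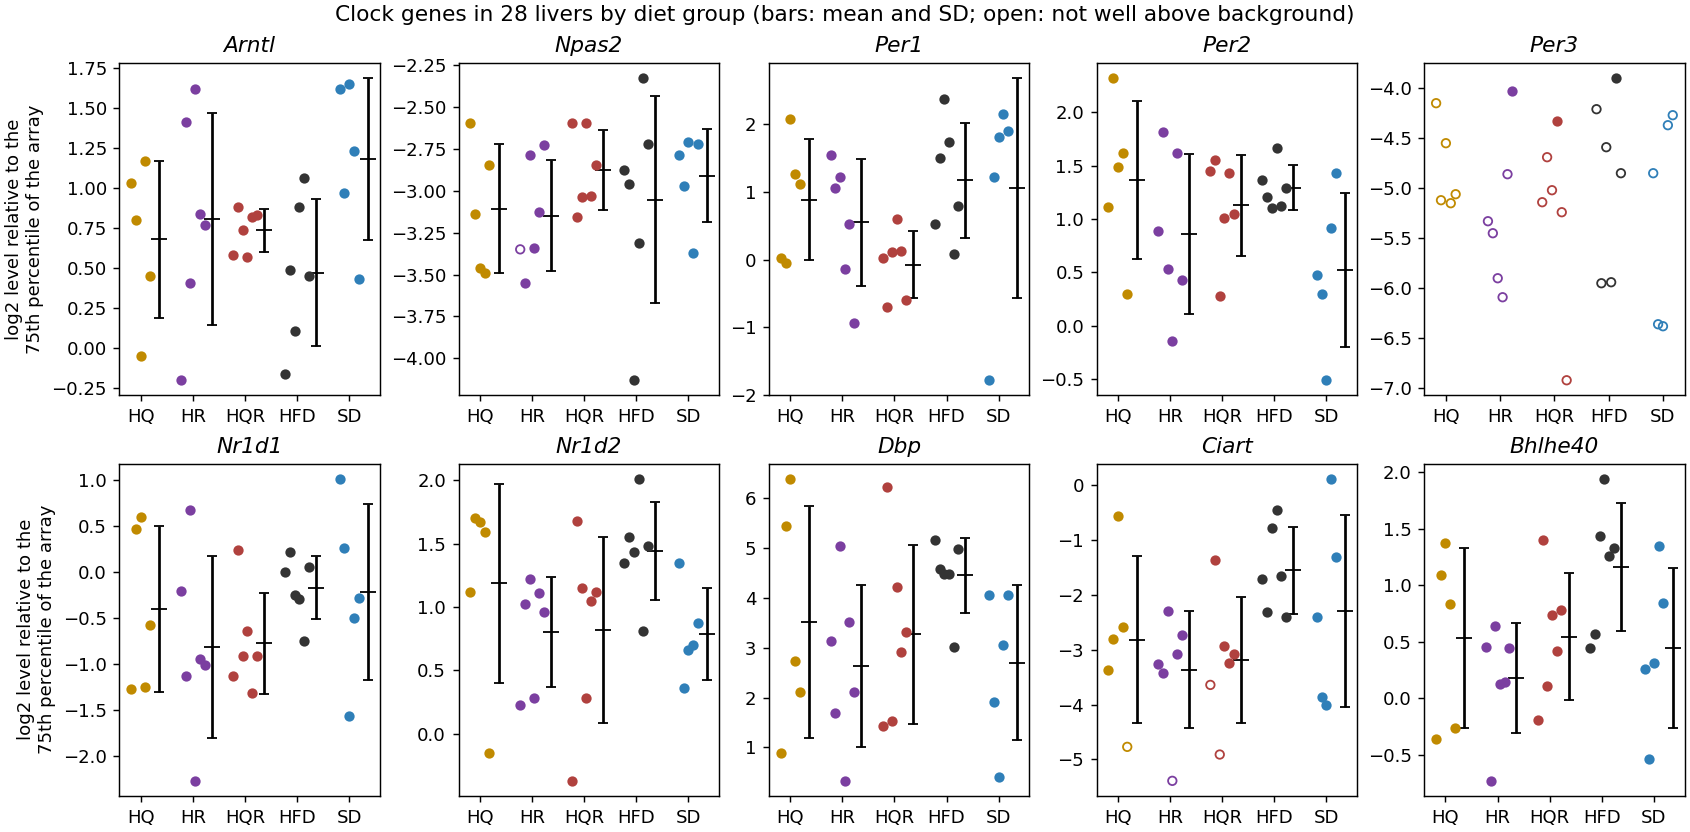
Level of each clock gene in each of the 28 livers (log2, with the 75th percentile of the array at 0, 1 panel a gene, its brightest probe), by diet group from HQ, HR and HQR to HFD and SD. Filled points were well above background and open points were not; black bars give the mean and SD of a group and are left out for Per3. Dbp lies between 3.02 and 5.17 in the HFD livers and spreads from 0.33 to 6.39 over all livers.

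Over all livers Dbp ran from 0.33 (HR replicate 4) to 6.39 (HQ replicate 3), a 66.5-fold range. Its SD within groups was 1.66, larger than that of 99.6% of the 21665 genes with a value on every array, for which the median was 0.48 and the 95th percentile 1.02. Group means were 3.52 in HQ, 2.64 in HR, 3.27 in HQR, 4.45 in HFD and 2.70 in SD. The difference between HFD and SD was 1.75 ± 0.94 (log2, standard error), a 3.37-fold size, with a limma p of 0.865 after Benjamini-Hochberg adjustment over all 21851 genes. Against HFD, Dbp differed by -1.81 ± 0.90 in HR, -1.18 ± 0.90 in HQR and -0.93 ± 0.94 in HQ, and none of these passed the threshold either (smallest adjusted p = 0.987). The direction of the first difference was the same on each of the 4 slides that held both diets, with HFD minus SD between 0.94 and 2.65. HR minus HFD was between -4.15 and -0.90 on the 4 slides that allowed it, each with 1 liver of either diet. HR replicates 1 (3.13) and 3 (5.04) lay on slides without an HFD liver and are not in that range. HQ minus HFD was -4.28 and -2.36 on 2 slides, from HQ replicates 1 and 5 alone. HQR minus HFD lay on both sides of 0, from -3.74 to 1.19 over 4 slides, and was positive on slide 8. With slide as a block in the fit, the difference between HQ and HFD moved to -2.53 ± 0.95 (adjusted p = 0.865). HQ replicate 3, the liver with the highest Dbp, was alone on slide 4, so it adds nothing to that estimate. Since these are whole livers, fewer cells that make an RNA and less of it per cell cannot be told apart.

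Ciart encodes a repressor of the ARNTL and CLOCK pair (also called CHRONO) and had 3 E-boxes in its window. In HQ livers 1 to 5 its levels were -3.36, -2.80, -0.55, -2.58 and -4.77. In HR livers the lowest level was -5.39, the median -3.16 and the highest -2.30. In HQR livers they were -4.91, -3.15 and -1.36. In each of these 3 groups all livers but 1 lay below the lowest HFD liver. In HFD livers the lowest level was -2.40, the median -1.68 and the highest -0.45. In SD livers 1 to 5 the levels were -2.40, -3.86, -4.01, 0.12 and -1.31, which takes in the whole HFD range. The 4 values not well above background were 1 in HQ, 1 in HR and 2 in HQR. Ciart had the second widest spread of the members, with an SD within groups of 1.27, larger than that of 98.4% of genes, and a 45.4-fold range over all livers. It differed from HFD by -1.26 ± 0.72 in HQ, by -1.81 ± 0.69 in HR and by -1.64 ± 0.69 in HQR, with adjusted limma p-values of at least 0.939. With slide as a block the HQ difference was -2.21 ± 0.84 (adjusted p = 0.865), the largest of the 3 in that fit. HQ replicate 3, the highest HQ liver at -0.55, was alone on slide 4 and adds nothing to that estimate. With another background correction (normexp), Ciart differed from HFD by -0.34 ± 0.42 in HQ, -0.62 ± 0.40 in HR and -0.73 ± 0.40 in HQR. The medians over all genes were then 0.24, 0.16 and 0.09. HFD minus SD was 0.15 ± 0.42 in that setting. The size of the Ciart differences thus depends on how background is handled. The HFD and SD means differed by 0.74 ± 0.72 (adjusted p = 0.958), and within slides this difference lay on both sides of 0, from -1.09 to 1.54.

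Bhlhe40 (DEC1) encodes a repressor that competes for E-boxes. Its levels in HQ livers 1 to 5 were -0.36, 1.09, 1.37, 0.83 and -0.26. In HR livers the lowest level was -0.73, the median 0.29 and the highest 0.64. In HQR livers they were -0.19, 0.58 and 1.40. In HFD livers the lowest was 0.44, the median 1.30 and the highest 1.94, and 4 of the 6 HFD livers stood above every HR liver. In SD livers 1 to 5 the levels were 0.26, -0.54, 0.31, 1.35 and 0.84. The mean was 0.18 ± 0.49 in HR and 1.16 ± 0.57 in HFD (SD, n = 6 each), a difference of -0.99 ± 0.35 (standard error) with an adjusted p of 0.83 by limma. Bhlhe40 followed the slides more than any other member: slide took up 73.8% of its variance within groups, against a median of 58.2% over all genes. Within slides HR minus HFD was between -1.80 and -0.82 on 4 of 4 slides. HR replicates 1 (0.45) and 3 (0.64) lay on slides without an HFD liver and are not in that range. With slide as a block the difference was -1.23 ± 0.23, and its adjusted p of 0.127 was the smallest of any member in any of the 41 alternative settings. The HFD and SD means differed by 0.72 ± 0.36, and on the 4 slides that held both diets by 0.08 to 1.11.

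Arntl is the activator of the loop and is required for its rhythm. In HQ livers 1 to 5 its levels were 1.03, 0.80, -0.05, 1.17 and 0.45. In HR livers the lowest level was -0.20, the median 0.80 and the highest 1.62. In HQR livers they were 0.57, 0.78 and 0.88, the narrowest group of any member with an SD of 0.13. In HFD livers the lowest level was -0.16, the median 0.47 and the highest 1.06, and 4 of 5 SD livers stood at 0.97 or above. In SD livers 1 to 5 the levels were 1.62, 0.97, 1.65, 1.23 and 0.43. The means were 0.47 ± 0.46 in HFD (SD, n = 6) and 1.18 ± 0.50 in SD (SD, n = 5), and the difference of -0.71 ± 0.29 (standard error) had the smallest adjusted p of the members in this comparison, 0.692 by limma. The 3 groups that received a compound had means of 0.68 to 0.81, between those of HFD and SD. Arntl was no more variable than other genes, since its SD within groups, 0.48, exceeded that of 50.2% of genes. Npas2, which can stand in for CLOCK, was a dim probe with a mean level of -3.02. Its group means lay between -3.15 in HR and -2.88 in HQR, closer together than the SD within groups of 0.40, and its lowest liver was HFD replicate 3 at -4.13.

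Nr1d1 and Nr1d2 encode the receptors that repress Arntl. In HQ livers 1 to 5, Nr1d1 had levels of -1.27, 0.47, 0.59, -1.25 and -0.58 on its brightest probe. In HR livers the lowest level was -2.27, the median -0.98 and the highest 0.67. In HQR livers they were -1.32, -0.91 and 0.24. In HFD livers the lowest was -0.75, the median -0.12 and the highest 0.22, the narrowest of the groups. In SD livers 1 to 5 the levels were 1.01, 0.26, -1.57, -0.50 and -0.29. HFD minus SD was 0.05 ± 0.45 and HR minus HFD was -0.64 ± 0.43 (standard errors). The 2 other Nr1d1 probes gave correlations over livers of 0.73 and 0.41 with the brightest one, on deviations from group means, so that Nr1d1 values depend on the probe. The dimmest of them reached -1.46 to -0.76 on slide 8 and at most -1.64 on all other slides. Nr1d2 had a mean level of 1.19 ± 0.78 in HQ, 0.80 ± 0.44 in HR, 0.82 ± 0.73 in HQR, 1.44 ± 0.39 in HFD and 0.79 ± 0.36 in SD. The HFD mean of Nr1d2 was the highest of the 5, with differences of -0.63 ± 0.32 for HR and -0.62 ± 0.32 for HQR against HFD and 0.65 ± 0.33 for HFD against SD, none past the threshold.

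The Per genes encode the repressors that close the loop, and Per1 also answers to glucocorticoids and cAMP. Per1 had mean levels of 0.89 ± 0.90 in HQ, 0.55 ± 0.94 in HR, -0.07 ± 0.49 in HQR, 1.17 ± 0.85 in HFD and 1.06 ± 1.62 in SD. The HQR livers were low and close together, with a highest level of 0.60, and the difference from HFD was -1.24 ± 0.55 (adjusted p = 0.987). The wide spread in SD came from replicate 1 at -1.78, against 1.22 to 2.15 in the other 4 SD livers. Per1 varied more within groups than 94.3% of genes (SD 1.00). Per2 had mean levels of 1.37 ± 0.74 in HQ, 0.86 ± 0.75 in HR, 1.13 ± 0.47 in HQR, 1.29 ± 0.21 in HFD and 0.53 ± 0.73 in SD. The 6 HFD livers lay between 1.10 and 1.67, while SD livers 1 to 5 stood at 0.48, 0.30, -0.51, 0.92 and 1.43. HFD minus SD was 0.77 ± 0.35 for Per2 (adjusted p = 0.783). The dimmer Per2 probe, printed above, hardly followed the brighter one (r = 0.15 over 28 livers on deviations from group means). Its means were -1.54 in HFD and -1.83 in SD, closer together than those of the brighter probe. The dimmer probe read -0.55 to 0.03 on slide 8, above every other array, of which the highest stood at -1.03. Per3 was read at -6.92 to -3.90, was above background on 1 HR, 1 HQR and 1 HFD array only, and is given no difference between diets.

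No member passed an adjusted p of 0.05 in any of the 10 comparisons between diets. In HFD against SD, 0 of 9 members were called, against 0.114% of all genes, and 2 of 9 members had an unadjusted p under 0.05, against 6.14% of all genes. In HR against HFD, 0 of 9 were called beside 0.00915% of all genes, with 2 of 9 and 4.92% at an unadjusted p under 0.05. In HQ against HFD, 0 of 9 members and 0% of all genes were called, with 0 of 9 members and 2.13% of genes at an unadjusted p under 0.05. In HQR against HFD, the shares were again 0 of 9 and 0%, with 2 of 9 and 1.36% unadjusted. The moderated F test over the 5 groups called 0 of 9 members and 0.105% of all genes. In the comparisons of HQ, HR and HQR with SD, 0 of 9 members were called, against 0.0366%, 0.0549% and 0.0503% of all genes. Ranges of the groups overlapped for every tested member in all 10 comparisons. The share of all genes with such overlap is not given, so nothing particular to the members is read from this. Of the 9 members, 7 had a difference between HFD and SD above 0, with a median of 0.65 over the 9 and -0.04 over all genes. Against HFD, 8 of 9 differences were below 0 in HR, 7 of 9 in HQR and 7 of 9 in HQ. Their medians were -0.63, -0.62 and -0.25, beside 0.01, 0.05 and 0.00 over all genes. Each gene is counted on its brightest probe. On the 2 other Nr1d1 probes the HFD means were -1.65 and -2.36. HQR (-1.61 and -2.15) and HQ (-1.58 and -2.32) lay above them, and HR (-1.79 and -2.49) below. The dimmer Per2 probe had means of -1.71 in HQ, -1.68 in HR, -1.26 in HQR and -1.54 in HFD. The 4 comparisons share the HFD livers, and the members were chosen on these data, so no test is attached to these counts.

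**Figure D2:**
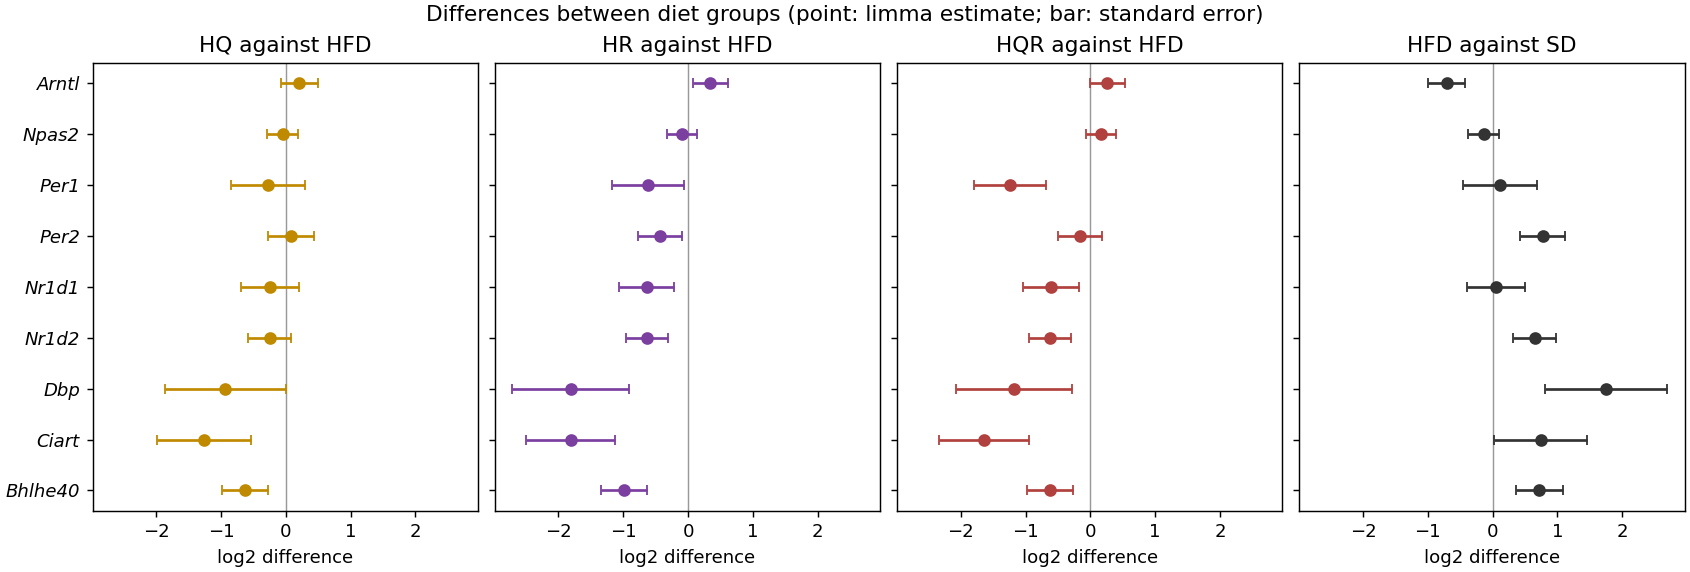
Log2 differences of the 9 tested clock genes (rows) in HQ, HR and HQR against HFD and in HFD against SD; points are limma estimates and bars their standard errors. Dbp and Ciart have the widest bars, and in HFD against SD the estimates run from -0.71 for Arntl to 1.75 for Dbp.

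No member passed the threshold between the groups that received different compounds. HQ minus HR was 0.88 ± 0.94 for Dbp, 0.55 ± 0.72 for Ciart, 0.36 ± 0.36 for Bhlhe40 and -0.13 ± 0.29 for Arntl. With slide as a block the sign turned for Dbp (-0.30 ± 0.91), Ciart (-0.20 ± 0.80) and Arntl (0.16 ± 0.33). Bhlhe40 had 0.11 ± 0.26, so no direction is given. The fit with slides draws nothing from HQ replicate 3, which was alone on slide 4 and highest of HQ in Dbp and Ciart. A p that misses the threshold does not show that the compounds acted alike. In HQ against HR, HQR against HQ and HQR against HR, limma called 0% of all genes, and 282, 312 and 606 genes had an unadjusted p under 0.05.

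A simple reading per liver sets the activators against the genes they drive: the mean level of Arntl and Npas2 minus the mean level of Per3, Nr1d1, Nr1d2, Dbp and Ciart. This value was -0.55 ± 1.27 in HQ, 0.03 ± 0.97 in HR, -0.05 ± 0.83 in HQR, -1.14 ± 0.67 in HFD and -0.01 ± 1.10 in SD. In HQ livers it ran from -2.47 to 0.56, in HR from -0.94 to 1.77 and in HQR from -1.56 to 0.76. HFD livers ran from -2.07 to -0.13 and SD livers from -0.95 to 1.65. The value subtracts levels of different probes, so its 0 has no meaning and only livers can be compared. Without Per3, which was rarely above background, it ran from -3.78 to -0.14 in HQ, from -2.35 to 0.90 in HR, from -2.83 to -0.08 in HQR, from -3.23 to -0.99 in HFD and from -1.97 to 0.60 in SD. The groups overlapped in all pairs either way.

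**Figure D3:**
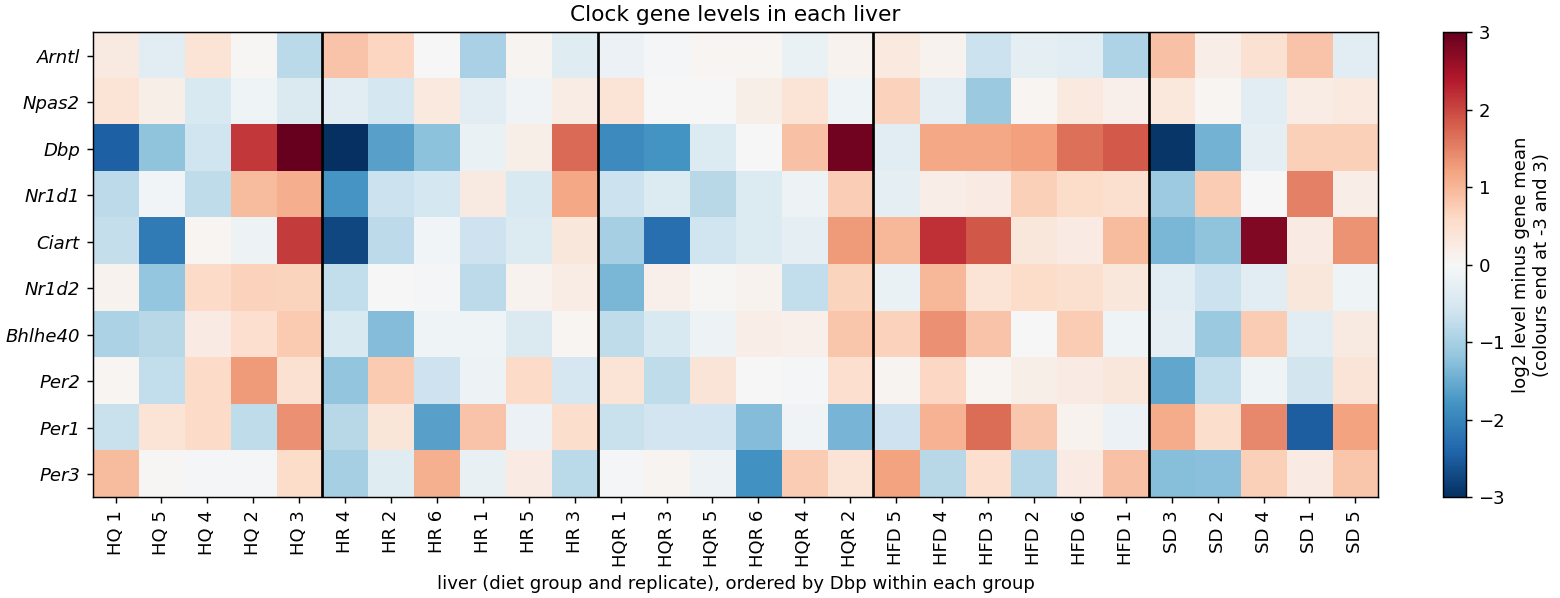
Level of each clock gene (rows) in each liver (columns), as log2 level minus the mean of the gene over 28 livers; livers are grouped by diet from HQ, HR and HQR to HFD and SD and ordered by Dbp within each group. Livers low in Dbp, such as HR 4 (0.33) and SD 3 (0.40), are also low in Nr1d1 and Ciart, and 5 of the 6 HFD livers are above the mean in Dbp.

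Dbp and most of the other members varied together from liver to liver within a diet. On deviations from the group means, Dbp and Nr1d1 had a Pearson r of 0.83 and a Spearman rho of 0.82 over 28 livers. Dbp and Ciart had an r of 0.70, Dbp and Bhlhe40 of 0.62, Dbp and Nr1d2 of 0.55, and Dbp and Per2 of 0.51. All of these are genes that the ARNTL pair is known to drive. Per1 was apart from them, with an r of 0.06 with Dbp. Among the other pairs, Ciart and Bhlhe40 had an r of 0.74 and Ciart and Per2 of 0.60. These values are descriptions: the livers of a slide share their hybridisation, and all genes of a liver share 1 array. Each gene was read on its brightest probe. The other Nr1d1 probes had an r of 0.73 and 0.41 with the brightest one, and the dimmer Per2 probe 0.15 with its own. The r values with Dbp therefore hold for the brightest probes only. With slide means removed as well, Dbp kept an r of 0.82 with Nr1d1, 0.61 with Ciart and 0.58 with Bhlhe40, and Ciart and Bhlhe40 had 0.83. Without the 2 livers farthest from the median of Dbp, HQR replicate 2 and HQ replicate 3, the r was 0.80 with Nr1d1 and 0.58 with Ciart. Dbp had an r of -0.04 with the share of probes above background on the array, and -0.07 with the mean of the hepatocyte markers. Of the cell type lists, the stellate mean had the r farthest from 0, at -0.31.

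**Figure D4:**
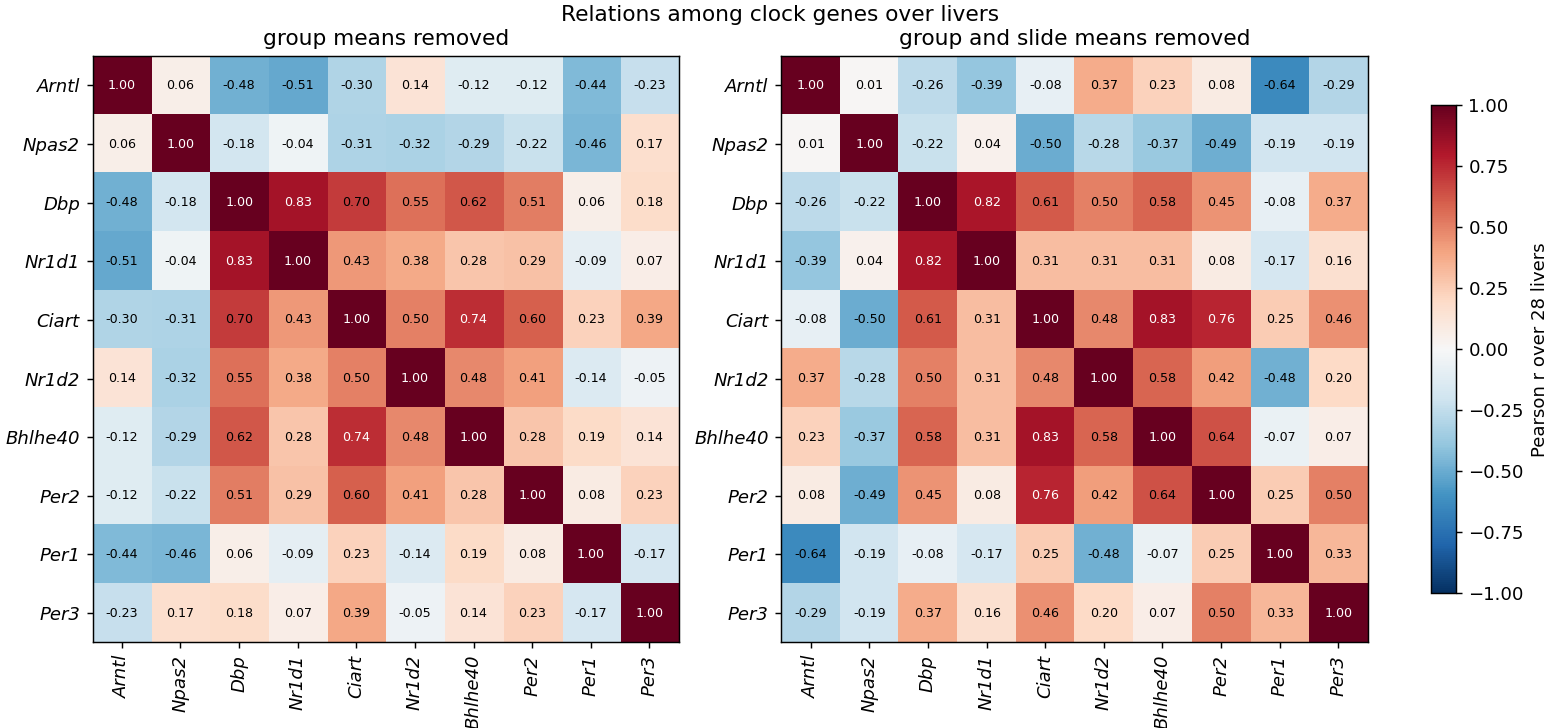
Pearson r between each pair of clock genes over 28 livers, with the diet group means removed (left) and with group and slide means removed (right). Each gene is read on its brightest probe. The block of Dbp, Nr1d1, Ciart, Nr1d2, Bhlhe40 and Per2 is positive throughout on the left, from 0.28 upward, while Arntl is at -0.48 with Dbp and -0.51 with Nr1d1.

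Arntl had negative correlations in value with most of these genes, but none of the 9 relations tested with Arntl passed the threshold after adjustment. Its r was -0.51 with Nr1d1 (rho -0.53, permutation p = 0.0235 within groups, 0.106 after Benjamini-Hochberg adjustment over the 9 relations) and -0.48 with Dbp (rho -0.42, permutation p = 0.0152, adjusted 0.106). It was -0.44 with Per1 (rho -0.43, permutation p = 0.0504, adjusted 0.151), -0.30 with Ciart, -0.23 with Per3 and -0.12 with both Per2 and Bhlhe40. With Npas2 and Nr1d2 it was 0.06 and 0.14. Without the 2 livers farthest from the median of Arntl, HR replicates 1 and 4, the r was -0.41 with Nr1d1 and -0.45 with Dbp. With group and slide means removed, Arntl had an r of -0.26 with Dbp, -0.39 with Nr1d1 and -0.64 with Per1. The permutation p of this last relation (0.00074, adjusted 0.00666) does not allow for the slide means taken out. It comes out too small, so no pass is read from it. Scaled to the array median instead, with group means removed, Arntl had an r of -0.02 with Per1, -0.25 with Nr1d1 and -0.33 with Dbp.

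**Figure D5:**
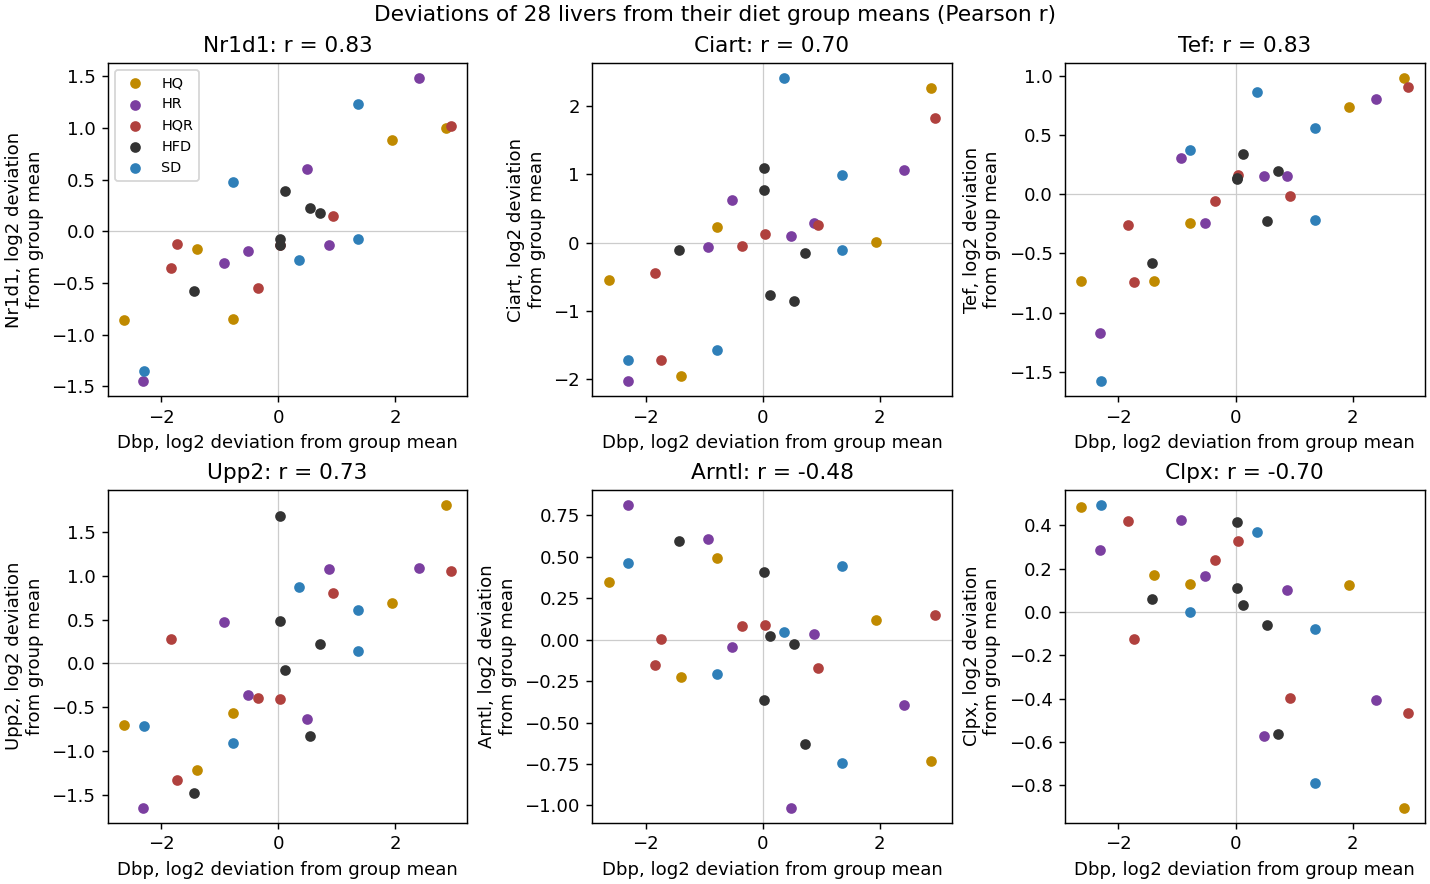
Deviation of Dbp from its diet group mean (x axis, log2) against that of Nr1d1, Ciart, Tef, Upp2, Arntl and Clpx (y axes, log2) in 28 livers coloured by diet group. Nr1d1 and Tef follow Dbp most closely (r = 0.83 each), and Arntl (r = -0.48) and Clpx (r = -0.70) lie on falling clouds.

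All 21664 other genes were ranked by the same r. For Dbp, Nr1d1 and Tef, a PAR bZIP relative of Dbp, came highest with 0.83 each, followed by Klhdc7a (0.82), Slc2a5 (0.78), a fructose transporter, Papss2 (0.78), which makes the sulfate donor of the cell, Acvr1b (0.77), C2cd2l (0.76) and 5730416O20Rik (0.75). With slide means removed Tef had 0.84 and Nr1d1 0.82, and the others named lay between 0.68 (Papss2) and 0.76 (Klhdc7a). At the opposite end stood Prkg1 (-0.71, above background on 13 arrays only), Clpx (-0.70), the unfoldase of the mitochondrial CLPXP protease, Jam3 (-0.69), Lonrf3 (-0.68), Pxmp4 (-0.67), A630005I04Rik (-0.66) and Skil (-0.65), besides 1 transcript known by an identifier alone. For Arntl the highest were the DNA methyltransferase Dnmt3b (0.80), the iron transporter Slc11a2 (0.76), the m6A reader Ythdc1 (0.76), Abca8a (0.74), and Fam13b, Rsrc2, Fbxo38 and Enpep (0.73 each). The lowest were Cyp2a22 (-0.74), Igfbp4, Rab7 and Usp2 (-0.73 each), Smim13 and Chd4 (-0.72 each) and Gpc1 (-0.71), with 1 further probe of no gene name. Usp2 encodes a ubiquitin protease whose RNA cycles in liver with the clock. Avpr1a, a vasopressin receptor, stood at 0.73 for Arntl. At the low end for Dbp, removing slide means gave -0.48 for Clpx, -0.53 for Lonrf3 and -0.58 for Pxmp4, while Jam3 reached -0.83. Prkg1, A630005I04Rik and Skil then had -0.71, -0.71 and -0.65.

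The other genes of the clock were looked at as lists. Of 16 further clock regulators (Clock, the Cry genes, the ROR receptors, Nfil3, Tef, Hlf and others), all were tested and none was called in HQ, HR or HQR against HFD or in HFD against SD. Their medians lay between -0.10 and 0.05, beside -0.04 to 0.05 over all genes. Among them the r with Dbp was highest for Tef (0.83), Timeless (0.61) and Cry2 (0.53). With Arntl it was high for Nfil3 (0.52), the repressor that acts on D-boxes, and lowest for Tef (-0.48) and Bhlhe41 (-0.43). Of 20 clock output genes 19 were tested and none was called. Against HFD their medians were -0.17 in HQ, -0.35 in HR and -0.41 in HQR, and in HFD against SD the median was 0.39. For Dbp this list ran from Clpx (-0.70), Lonrf3 (-0.68) and Elovl3 (-0.62) to Upp2 (0.73), which splits uridine. With slide means removed Elovl3 had -0.41 and Upp2 0.75. For Arntl it ran from Usp2 (-0.73) to Clpx (0.67) and Avpr1a (0.73).

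Hormone and feeding genes, which reset the liver clock, were read in the same livers. Of 7 glucocorticoid targets 6 were tested and none was called, and their r with Dbp lay between -0.20 and 0.19. In HFD against SD their median was -0.54, with 5 of 6 below 0. Against HFD it was -0.37 in HQ, 0.19 in HR and -0.58 in HQR, with 5, 2 and 5 of 6 below 0. In HQR against SD all 6 were below 0, with a median of -0.87. There 3 of 6 had an unadjusted limma p under 0.05, against 6.43% of all genes (smallest adjusted p = 0.433). Of 9 genes that answer to feeding and fasting none was called. In HFD against SD, 2 of the 9 were above 0 and 7 below, with a median of -0.61 beside -0.04 over all genes. The unadjusted limma p was under 0.05 for 4 of 9, against 6.14% of all genes, and the smallest adjusted p was 0.0816. The r of the 9 feeding genes with Dbp ran from -0.51 for Igfbp1 to 0.39. In HR against HFD, where Bhlhe40 and Ciart had their lowest group means in HR, all 5 Kupffer cell markers (median 0.59) and all 5 markers of sinusoidal endothelium (median 0.56) were above 0, with none called. The 2 tested erythrocyte markers were both below 0 (median -0.72) and the 2 tested adipocyte markers both above 0 (median 0.85), again with none called. In HFD against SD the medians were -0.56 for Kupffer cells (4 of 5 below 0), 0.35 for stellate cells (4 of 5 above 0), 0.54 for erythrocytes and -0.65 for adipocytes, and 0 genes of these lists were called. The part of these lists in the values of the clock genes was not tested. The mean of the Kupffer list had an r of 0.15 with Dbp, that of the endothelial list -0.21 and that of the stellate list -0.31. With slide means removed as well, single stellate markers ran from -0.73 (Dcn) to 0.17 (Lrat). In that setting endothelial markers ran from -0.58 (Lyve1) to -0.01 (Stab2), and bile duct markers from -0.55 (Krt19 and Sox9) to 0.02 (Epcam).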

How the data were processed

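Each liver was measured on 1 Agilent array. Per the file headers, the scanner files were made with Feature Extraction 10.5.1.1 on probes placed on mm9, and the intensity used was the processed signal, background-subtracted by that program. The deposited value table of the authors holds a processed score whose scale and centring are not stated: over probes above background, the log2 intensity of an array rose by 3.25 per unit of it (r rounding to 1 on every array), its column medians ran from -0.169 to -0.0992, and its log base stays unknown. It served as an alternative.

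Here, spots were averaged by probe, log2 intensity was taken, and the 75th percentile of each array was subtracted. Outlier spots (2887) and control spots were left out. Probes had to be well above background on at least 5 arrays, and a gene was read on its brightest probe. Probe names were updated through RefSeq tables (25097 by accession, 6333 by symbol and 1640 by older name, with 8104 kept as on the array). limma 3.58.1 (R 4.3.3) fitted all 28 arrays by group, with Benjamini-Hochberg adjustment over 21851 genes. Relations with Arntl used deviations from group means and 100000 permutations within groups, two-sided. The limma step was tested on simulated data. Alternatives were the scaling, background correction, filter, choice of probe, slide, scan day and replicate number as blocks, and each liver left out in turn. Nothing says that replicate numbers mark shared cages or days. Between same-numbered livers the correlation of deviations was over 0.1 for all 5 pairs in HFD against SD (0.217 to 0.698) and not in the other 9 comparisons, so the block was used as a pairing for HFD and SD only.

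Members, gene lists, motifs and probes shown were chosen with earlier results of these data known. All members are named. From the other lists, genes past the threshold and up to 4 at each end of the relation with Arntl or Dbp are named, with the 8 genes most like and most unlike each of these. Some genes of these lists are not reported here. The number of arrays limits the precision.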

Additional observations from a re-analysis of the deposited data

Results flagged for a closer look

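Over the 10 genes and the activator-minus-target value in each diet, 5 of 55 groups of 5 or 6 livers held a liver whose gap to the others was wide for the range of its group (Dixon's test), where chance alone marks about 1 in 20. Per1 stood at -1.78 in SD replicate 1, with the nearest SD liver at 1.22. Per3, a dim probe, was read at -6.92 in HQR replicate 6, with the nearest at -5.24. Dbp was 3.02 in HFD replicate 5, an array of slide 8, with the nearest HFD liver at 4.48. Ciart was -5.39 in HR replicate 4, where it was not well above background, with the nearest at -3.43. Bhlhe40 was -0.73 in HR replicate 2, with the nearest HR liver at 0.13. Each of the 5 was the lowest liver of its group.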

How the results depend on the processing

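The count of clock genes past the threshold was 0 in all 281 counts made over the 41 alternative settings, with a smallest adjusted p of 0.127. Each liver left out in turn was tried in the comparisons of its own group and the F test, and the F test was not run with an intensity trend or on the compared arrays alone. This covers the fit with the replicate number as a block, where the smallest was 0.495 and HFD minus SD was 1.75 ± 1.03 for Dbp (adjusted p = 0.685), so the pairing changed no call there. Of 2158 log2 differences recomputed, 2154 moved by less than the SD within groups. The 4 that moved more were all Npas2 with normexp background correction: 0.57 in HQ and 0.33 in HR against HFD, 0.31 in HQ against SD and -0.37 in HQR against HQ. With it, the median over all genes lay at 0.24 in HQ and 0.16 in HR against HFD and at -0.14 in HFD against SD. The SD within groups was wide for Dbp (1.66) and Ciart (1.27), so a move below it does not show a stable size. Dbp in HQ against HFD went from -0.93 to -2.53 with slide as a block and was not counted as moved. Neither was Ciart in HR against HFD, which went from -1.81 to -0.62 under normexp.

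The relations with Arntl were less stable. Scaled to the array median, Arntl had an r of -0.02 with Per1, -0.25 with Nr1d1, -0.33 with Dbp and -0.15 with Ciart. In that setting it had 0.14 with Bhlhe40 and 0.43 with Nr1d2, and no relation passed. Under normexp the r with Npas2 turned to -0.63 (adjusted p = 0.00963) and that with Per3 reached -0.69 (0.0009). Both are dim probes, and the cause was not tested. With group and slide means removed, Per1 stood at -0.64. With replicate block, group and replicate means removed, the r was -0.65 for Per1, -0.54 for Nr1d1 and -0.55 for Dbp. In both settings the adjusted permutation p of the relations named was under 0.05. It does not allow for the slide or replicate means taken out, so no pass is read from it. Leaving out 1 liver at a time, the r ranged from -0.65 to -0.41 for Nr1d1, from -0.55 to -0.39 for Dbp, from -0.51 to -0.37 for Per1, from -0.33 to -0.14 for Per3, from -0.36 to -0.18 for Ciart, from -0.25 to 0.03 for Per2, from -0.22 to -0.01 for Bhlhe40, from -0.06 to 0.14 for Npas2 and from 0.03 to 0.25 for Nr1d2. Nr1d1 (-0.65) and Dbp (-0.54, adjusted p = 0.0251 each) passed the threshold without SD replicate 1 and with no other liver left out. Without slide 8, a setting chosen after the data were seen, no relation passed and the r with Dbp was -0.45. Low signal limits Per3, Npas2 and Ciart.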
